A study of Mus musculus with 4 samples.

Results

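The regions described here are the wide Pax7 peaks, those of 500 bp or more, in a map of Pax7 occupancy in mouse muscle progenitors. They were selected on their measured width in the deposited peak list, and 841 of 20579 peaks met the limit, or 4.09% (Wilson 95% interval 3.82 to 4.37%). The other 19738 peaks are called narrower peaks below. Wide peaks covered 0.514 of the 5.73 Mb under all peaks, or 8.96% of the bases.

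Pax7 ChIP-seq was performed in iPax7 cells, mouse embryonic stem cells that carry a doxycycline-inducible Pax7 transgene and were driven towards skeletal muscle progenitors. Doxycycline was given at 1 µg/ml from day 3 of embryoid body culture, PDGFRα+FLK1- cells were sorted on day 5, and the cells were expanded for 4 more days in doxycycline and basic-FGF before harvest on day 9, after 6 days of induction. There were 2 Pax7 ChIP and 2 input libraries, all from doxycycline-treated cells of this 1 inducible line, so no group without induction enters any comparison below. Occupancy was measured under induction, and the peak list cannot tell induced from endogenous Pax7. The peaks were called once on the merged libraries, so no peak has a value per replicate, and the identity of the cells could not be checked against marker genes because the list holds no expression. The depth of the libraries is not in the list.

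Pax7 is a transcription factor of muscle stem cells, or satellite cells, and of their embryonic precursors. It carries a paired domain, which recognises sequences around GTCAC, and a homeodomain, which recognises TAAT and binds palindromes of it as a dimer. A peak of a ChIP-seq experiment is a stretch of genome where immunoprecipitated fragments pile up above the local background, its summit is the position with most fragments, and its width depends on how high the pileup is and on whether adjacent pileups run into each other.

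Pax sites were searched on both strands as a paired-box core (GTCACG), a paired-box plus homeobox sequence (ATTAGTCAC) and a homeodomain dimer (TAAT and ATTA with 2 or 3 bases between them). The paired-box plus homeobox sequence overlaps a core where a G follows it. The following stretches show Pax sites in 5 of the wide peaks named below, taken from the plus strand of NCBIM37 (mm9), 5′ to 3′, with the Pax site in capitals. They are shown because they place the site at different distances from the summit. In the intron of Vcam1, which encodes a cell adhesion molecule, 1 core lay 38.5 bp and the other 406.5 bp from the summit. The site in the intron of Crim1 is a homeodomain dimer 5.5 bp from the summit, and the core in the intron of Plxna2, a semaphorin receptor gene, lay 9.5 bp from it. In the intergenic peaks nearest to Murc and 1700056E22Rik the only core lay 357.5 and 332.5 bp from the summit.
Vcam1, far site, chr3:115829085-115829184: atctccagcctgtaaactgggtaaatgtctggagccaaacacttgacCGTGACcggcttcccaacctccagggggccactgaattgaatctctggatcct
Vcam1, near site, chr3:115829530-115829629: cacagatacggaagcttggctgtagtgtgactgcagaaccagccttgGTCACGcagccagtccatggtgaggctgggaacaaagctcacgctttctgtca
Crim1 intron, chr17:78725483-78725582: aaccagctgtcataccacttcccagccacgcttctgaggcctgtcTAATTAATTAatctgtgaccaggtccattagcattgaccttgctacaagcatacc
Plxna2, chr1:196583199-196583298: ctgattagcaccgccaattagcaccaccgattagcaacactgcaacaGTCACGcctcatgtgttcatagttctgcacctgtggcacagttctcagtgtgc
Murc, chr4:48768828-48768927: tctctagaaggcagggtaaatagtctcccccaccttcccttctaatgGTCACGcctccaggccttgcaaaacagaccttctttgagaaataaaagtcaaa
1700056E22Rik, chr1:186068721-186068820: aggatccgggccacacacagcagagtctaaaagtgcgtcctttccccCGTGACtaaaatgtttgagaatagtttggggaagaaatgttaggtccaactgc

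Such a site was absent from 578 of the 841 wide peaks, and from most of those with the highest enrichment. It was also absent from 80.6% of the narrower peaks, which are shorter, so its absence is not a trait of wide peaks. The summit and the 50 bp to either side of it are shown for 3 of the latter for contrast. These 3 peaks held no such site along their whole length.
Psmb2 intron, chr4:126384499-126384599: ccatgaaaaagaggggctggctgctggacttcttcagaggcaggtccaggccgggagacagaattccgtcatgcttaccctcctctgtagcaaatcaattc
Slc24a4, chr12:103421618-103421718: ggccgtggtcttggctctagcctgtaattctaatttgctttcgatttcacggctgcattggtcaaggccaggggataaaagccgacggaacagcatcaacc
Chd9, chr8:93265505-93265605: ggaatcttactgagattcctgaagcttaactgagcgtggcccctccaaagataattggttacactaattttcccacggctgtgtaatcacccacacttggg

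Wide peaks ranged from 500 to 1374 bp and their median was 572 bp, with quartiles of 529 and 660 bp. The fold enrichment at the summit, the ratio of the ChIP pileup to the local background as the peak caller gives it, ranged from 2.62 to 23.7 with a median of 7.80 among wide peaks and had a median of 5.12 among narrower ones. A fold of at least 5 was reached by 88.5% of wide and 53.5% of narrower peaks, and a fold of at least 10 by 28.7% and 6.07%. The median −log10 q was 27.9 against 11.4. Width, fold and q come from the same pileup that selected the members, so these values are a description and were not tested. Spearman's rho of width and fold was 0.568 over all 20579 peaks and 0.154 over the 841 wide peaks, whose points share the same libraries.

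The number of ChIP fragments behind each summit was worked back from the fold and p-value of each peak, using the formula of the peak caller. A wide peak had between 20 and 169 fragments at its summit with a median of 56, over a median local background of 5.92 fragments. Narrower peaks had a median of 34 fragments over a background of 5.06. The background was at its genome-wide floor of 4.50 fragments in 17.0% of wide and 26.9% of narrower peaks. A median wide peak therefore rested on more fragments than a median narrower peak, and its precision in counting is higher.

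**Figure D1:**
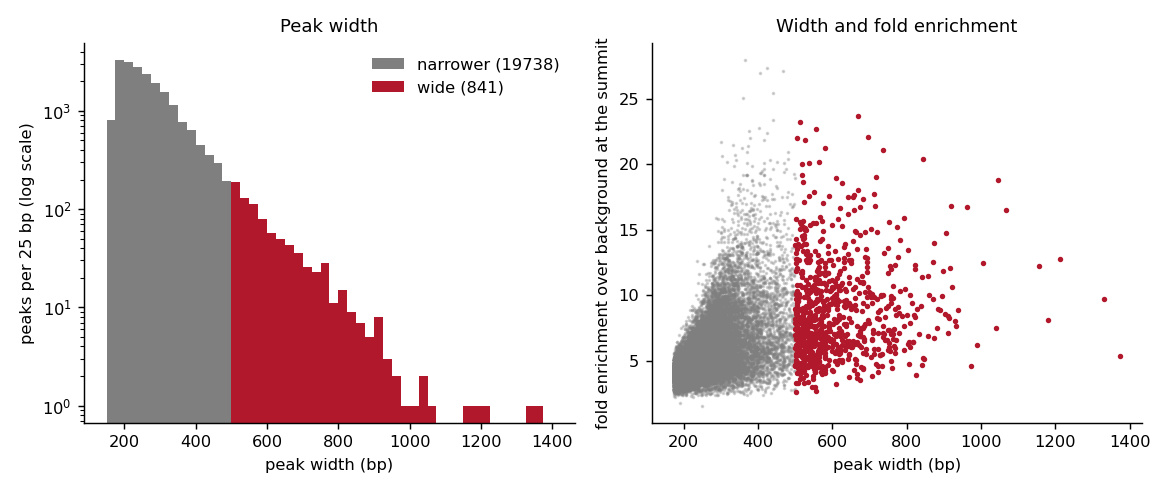
Left, number of peaks per 25 bp of width on a log scale, with narrower peaks in grey and wide peaks in red. Right, fold enrichment at the summit against width, 1 point per peak. The wide peaks are the tail of a single falling distribution from 500 to 1374 bp, and they span folds from 2.62 to 23.7, while the highest fold of all, 28.0, belongs to a narrower peak.

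At the limit itself, 9 peaks were 500 bp wide, from 4.64- to 13.9-fold with a median of 7.45, and 6 were 499 bp wide, from 7.56- to 19.0-fold with a median of 8.06. The ranges overlapped. The 3 of 500 bp with the highest fold lay in introns of Kdm5a, a histone demethylase gene, Adamts9, a metalloprotease gene, and Sept11, a septin gene, at 13.9-, 8.99- and 8.24-fold. The 3 of 499 bp with the highest fold lay between genes nearest to Rgs21, Igsf11 and Mprip, at 19.0-, 9.94- and 8.36-fold.

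The summit of a wide peak often lay off centre. It was a median of 111 bp from the middle of the peak, against 17.5 bp in narrower peaks, and over 100 bp from the middle in 488 of 841 wide peaks and 290 of 19738 narrower ones. A wide peak offers more room for such an offset, and both values follow from the pileup. The extreme case was the second widest peak, whose summit was 451 bp from its middle.

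The 10 widest peaks fell into different settings. The widest, at chr11:101412774-101414147, spanned 1374 bp at the promoter of Nbr1, an autophagy receptor gene, with its summit 0.181 kb into the gene. Its enrichment was 5.40-fold, from 44 fragments (exact Poisson 95% interval 32.0 to 59.1) over a background of 7.0. The next, chr11:17349315-17350645, was 1331 bp wide and 9.75-fold, and lay between genes 192.8 kb from the start of C1d, the nearest protein-coding gene. The peak at chr4:48768300-48769511 was 1212 bp wide and 12.8-fold with 119 fragments (98.6 to 142.4), and its nearest gene was Murc, which encodes a muscle-restricted protein of caveolae, 92.8 kb away. These 3 peaks differed by more than 2 times in fold although their widths were close to each other.

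Among the others of the 10, a peak of 1180 bp lay in an exon of the zinc finger gene Zfp677 at 8.16-fold. Peaks between genes were nearest to N6amt1 (1156 bp, 12.2-fold), Tnp1 (1068 bp, 16.5-fold), 1700056E22Rik (1004 bp, 12.47-fold) and Arhgap28 (990 bp, 6.19-fold). A peak of 1045 bp and 18.8-fold lay in an intron of Ppp1r9a, which encodes the actin-binding protein neurabin. A peak of 1041 bp and 7.54-fold covered the promoter of Pop7, and its summit fell within the annotated Epo locus. In all, 6 of the 10 lay between genes, 2 at promoters, 1 in an intron and 1 in an exon.

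The 5 wide peaks of highest enrichment were of ordinary width for the class, from 504 to 695 bp. The highest, chr4:126384111-126384778, reached 23.7-fold with 157 fragments (133.4 to 183.6) in an intron of the proteasome subunit gene Psmb2, with Tcfap2e as the nearest protein-coding start. It was followed by intronic peaks of Slc24a4 (23.2-fold) and Crim1 (22.7-fold), a peak between genes 87.2 kb upstream of Chd9 (22.1-fold) and an intronic peak of Mapk4 (22.05-fold). Of these 5 only the Crim1 peak held a Pax site, while 68.7% of all wide peaks held none. None of the 5 lay within 1 kb of a transcription start site (TSS).

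The 5 wide peaks of lowest enrichment ranged from 2.62- to 3.28-fold and lay in an intron of Tcf7l1, between genes near 5330426P16Rik, in an intron of Slc2a13, in an exon of Ndufs4 and in an intron of Tab1. Their summits had 27 to 40 fragments over backgrounds of 8.00 to 11.0 fragments, above the median background of wide peaks of 5.92.

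The first comparison asked where in the genome wide peaks lie. A summit within 1 kb of a TSS was called promoter, and the others exon, intron or intergenic by GENCODE vM1. Of the 841 wide peaks, 368 were intergenic, 326 were in introns, 132 were at promoters and 15 were in exons. Intergenic peaks made up 43.8% (40.4 to 47.1%) of wide and 38.8% (38.1 to 39.5%) of narrower peaks, a difference of 4.94 percentage points whose Newcombe 95% interval, 1.55 to 8.38, excluded 0. Introns held 38.8% of wide and 42.3% of narrower peaks (difference −3.53 points, interval −6.83 to −0.12), but this interval included 0 at a fold of at least 5, with TSSs within 5 kb and with protein-coding TSSs only, and the difference was 3.91 points at a fold of at least 10. The promoter share was 15.7% against 16.3%, and the interval of the difference, −2.98 to 2.04 points, included 0. Exons held 1.78% and 2.58% (interval −1.53 to 0.36). These intervals cover counting error only, and adjacent peaks are not independent.

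Wide peaks were also more often over 100 kb from a TSS, a distance that can be reached inside a long gene too. The nearest TSS was over 100 kb away for 133 wide peaks, 15.8% against 12.54% of narrower peaks, a difference of 3.27 points (interval 0.91 to 5.93). The median distance to the nearest TSS was 22.1 kb for wide and 16.6 kb for narrower peaks. The share beyond 10 kb, 63.1% against 59.9%, differed by less than its interval (−0.18 to 6.47 points). By chromosome, the share of peaks that were wide ran from 2.88% (1.40 to 5.83%) on chromosome X, with 7 wide peaks, to 5.17% (4.05 to 6.57%) on chromosome 10, with 62, and these intervals overlapped.

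The place of a wide peak went together with its strength. At promoters the median fold of wide peaks was 6.56, in introns 8.20 and between genes 8.03. Among peaks of 5- to 7.5-fold, promoters held 22.3% of wide and 14.9% of narrower peaks, 7.39 points more (interval 2.91 to 12.6). Among peaks of 10- to 15-fold the order was the opposite, with 7.61% of 184 wide peaks and 15.0% of 1019 narrower peaks at promoters (difference −7.41 points, interval −11.2 to −2.22). At 15-fold or more, 2 of 57 wide peaks and 18 of 179 narrower peaks were at a promoter. The interval of that difference, −12.4 to 2.60 points, included 0. The near-equal promoter shares over all peaks thus combined differences of opposite sign at low and high enrichment. The excess of intergenic peaks was 4.98 points at a fold of at least 10, with an interval that then included 0 (−1.83 to 11.9).

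The 5 strongest promoter peaks of the class, chosen after their values were seen, had Fam36a, Arhgap1, Ddx39b, Cap1 and Gtf2f2 as nearest genes. Cap1 encodes an actin-regulating cyclase-associated protein and Gtf2f2 a subunit of the general transcription factor TFIIF. Promoter wide peaks had a median GC content of 53.1% in the summit and the 250 bp to either side of it and a median CpG ratio of observed over expected of 0.73, against 0.27 for intergenic wide peaks.

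**Figure D2:**
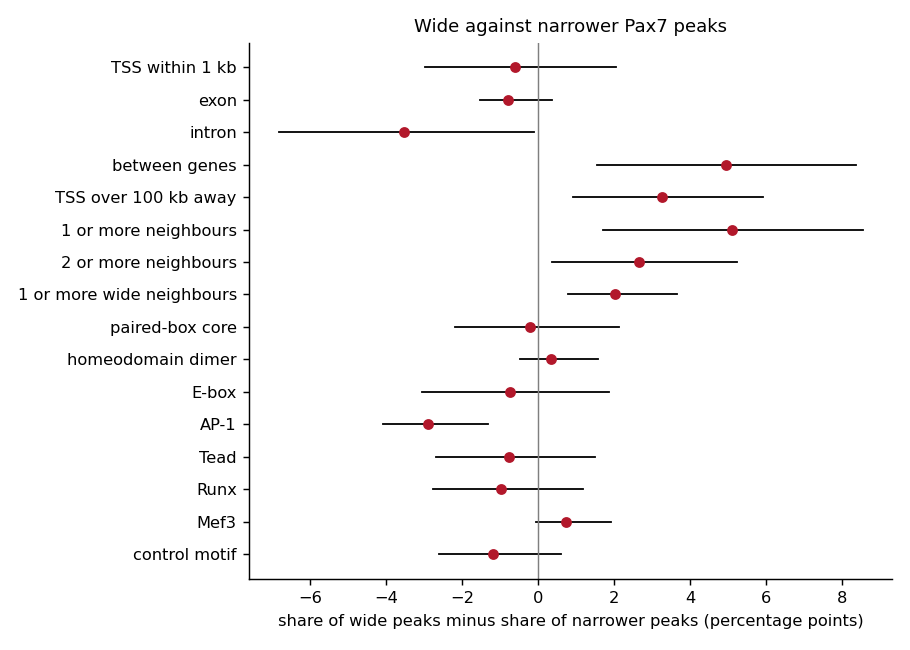
Share of wide peaks minus share of narrower peaks, in percentage points, for genomic classes, neighbours within 12500 bp and motifs within 50 bp of the summit, with Newcombe 95% intervals as bars. Intergenic location, a distant TSS and neighbours lay to the right of 0, introns and AP-1 to the left, and the intervals of the Pax sites included 0. The bars of the neighbour rows are too narrow, since neighbouring peaks are not independent.

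The second comparison asked whether wide peaks have other Pax7 peaks close by. Another summit lay within 12500 bp of 375 wide peaks, 44.6% against 39.5% of narrower peaks, a difference of 5.12 points (interval 1.72 to 8.56). The interval included 0 among peaks with a fold of at least 10 (−0.36 to 13.3) and for neighbours within 50 kb (−0.42 to 5.41). At least 2 neighbours were present for 14.6% against 11.98% (interval of the difference 0.37 to 5.24), and at least 3 for 3.57% against 3.22% (−0.74 to 1.84). A wide neighbour was present for 38 wide peaks, 4.52% against 2.50% of narrower peaks, 2.02 points more (0.79 to 3.65). A wide peak and its wide neighbour each count for the other, so these 38 are not independent. Neighbouring peaks share a cluster, so all intervals of the neighbour shares are too narrow. Since 2 summits of 1 broad domain can be called as separate adjacent peaks, the share was also taken for summits 1000 to 12500 bp away, an alternative chosen after seeing the data. It was 39.8% against 34.4%, a difference of 5.45 points (2.13 to 8.87).

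When summits at most 12500 bp apart were chained into clusters, 466 wide peaks stood alone and the others fell into clusters with other peaks. There were 821 clusters with a wide peak, 20 of which had 2 and none more. The wide peak with the most neighbours was a 524-bp peak of 5.88-fold in an intron of Pde4d, a cAMP phosphodiesterase gene, with 6. A pair of wide peaks of 692 and 881 bp in an intron of the zinc finger gene Zfp568 had 5 neighbours each and summits 0.907 kb apart, at 11.8- and 7.53-fold. The largest cluster with a wide peak had 10 peaks over 41.7 kb near Ddc, the gene of dopa decarboxylase, and 2 of these were wide.

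The third comparison concerned the sequence at the summit. Within 50 bp of the summit, 92 wide peaks had a paired-box core, 10.9% (9.01 to 13.2%), against 11.1% of narrower peaks (interval of the difference −2.19 to 2.12 points). Any Pax site was found in 13.6% and 13.7% (−2.39 to 2.34). In windows of the same size placed 2 kb to either side of the summits of all peaks, the core was present in 0.974% and any Pax site in 1.59%. The homeodomain dimer was found in 2.14% of wide and 1.80% of narrower peaks and 0.569% of those windows. The interval of the difference between wide and narrower peaks was −0.47 to 1.57 points for the dimer. With the shorter GTCAC as the core, an alternative chosen after seeing the data, 30.7% of wide and 31.9% of narrower peaks had a match. The interval of that difference, −4.35 to 2.01 points, included 0. The windows 2 kb away were not searched for GTCAC.

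Sites of other factors were searched in the same windows, each on both strands. The AP-1 site TGANTCA, bound by Fos and Jun proteins, was found at 34 wide peaks, 4.04% against 6.94% of narrower peaks (difference −2.90 points, interval −4.09 to −1.31), and in 3.75% (2.94 to 4.76%) of the windows 2 kb from wide and 2.97% of those 2 kb from narrower summits. The share at wide summits was thus within the interval of their own surroundings. At a fold of at least 10 the AP-1 difference was −1.46 points, with an interval that included 0 (−4.38 to 2.58). It was similar to that over all peaks for peaks over 1 kb from a TSS, at 4.65% against 7.65% (−4.38 to −1.15 points). The E-box CAGCTG, bound by MyoD and related factors, was found at 15.0% of wide and 15.7% of narrower peaks (−3.06 to 1.87) and in 4.11% of the windows 2 kb away. The Tead site GGAATG (10.2% and 11.0%), the Runx site TGTGGT (8.80% and 9.77%) and the Mef3 site TCAGGTT, bound by Six2 and related homeoproteins (2.02% and 1.30%), had intervals that included 0. So did GCACTG, a control with no known link to these factors, at 5.71% and 6.91%, and in 5.73% of the windows 2 kb away. With the width limit at 600 bp, however, the control itself differed by −3.61 points (−5.10 to −1.07). A match in these letters is a description and does not show that a factor was bound.

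Among narrower peaks the share with a Pax site near the summit was 11.3% under 5-fold, 14.1% at 5- to 7.5-fold, 17.0% at 7.5- to 10-fold, 24.0% at 10- to 15-fold and 27.9% at 15-fold or more. Among wide peaks it was 6.19% under 5-fold, 14.4% at 5- to 7.5-fold, 14.7% at 7.5- to 10-fold, 14.1% at 10- to 15-fold and 15.8% at 15-fold or more. Under 5-fold the interval of the difference for any Pax site, −8.46 to 1.62 points, included 0. The core alone was at 3 of 97 wide peaks there, 3.09%, and at 9.12% of narrower peaks (interval of the difference −8.15 to −0.39). At 5- to 7.5-fold and 7.5- to 10-fold the intervals of the difference for any Pax site, −3.40 to 4.81 and −6.77 to 3.31 points, included 0. At 10- to 15-fold wide peaks were 9.91 points lower than narrower ones for any Pax site (interval −15.0 to −3.62). At 15-fold or more the paired-box core was found at 6 of 57 wide peaks, 10.5%, and at 24.0% of 179 narrower peaks (interval of the difference −22.3 to −1.48). For any Pax site at that strength the interval, −22.2 to 0.92 points, included 0. The 59 peaks of 800 bp or more had a core near the summit in 3.39% (0.93 to 11.5%), and the 508 peaks of 500 to 599 bp in 12.2% (9.64 to 15.3%). These strata were chosen with the values known.

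**Figure D3:**
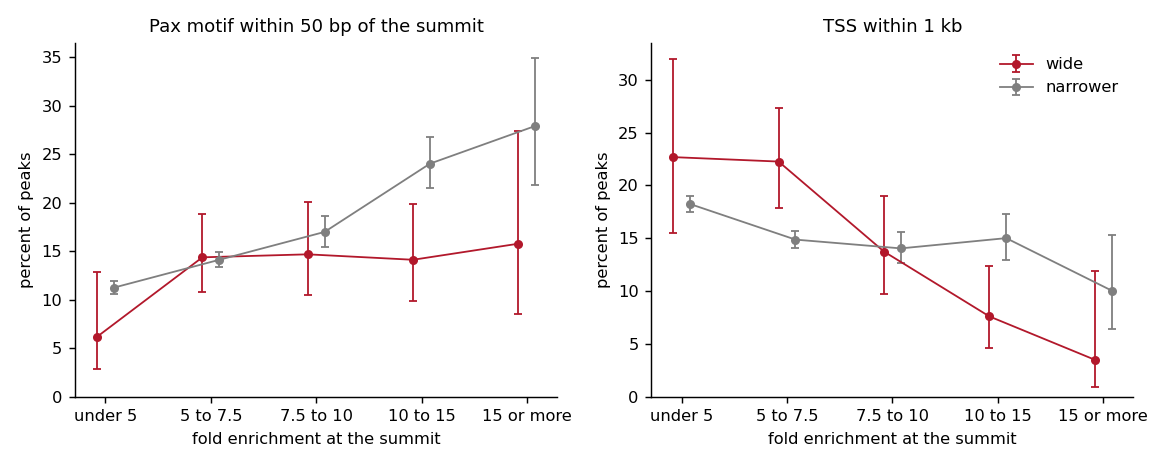
Percent of peaks with a Pax site within 50 bp of the summit (left) and with a TSS within 1 kb (right) for 5 ranges of fold enrichment, wide peaks in red and narrower peaks in grey, with Wilson 95% intervals. From 10- to 15-fold, wide peaks stood at 14.1% for Pax sites and 7.61% for TSSs, narrower peaks at 24.0% and 15.0%.

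Because wide peaks extend far beyond the summit, sites were also counted along their whole length. At least 1 Pax site was present in 263 of the 841 wide peaks, 220 with 1 site, 40 with 2 and 3 with 3, and 578 had none. A longer peak holds more sites at equal density, so no difference from narrower peaks, of which 80.6% had none, was read from this count. Per kb of peak, wide peaks had 0.448 cores (exact Poisson 95% interval 0.392 to 0.510), against 0.117 (0.0969 to 0.140) in the flanking sequence. The E-box was present at 1.32 per kb (1.22 to 1.42) in wide peaks against 0.499 in their flanks, AP-1 at 0.424 (0.370 to 0.485) against 0.324 (0.290 to 0.361), and the control at 0.742 (0.669 to 0.820) against 0.622 (0.575 to 0.672). Narrower peaks, which have less sequence far from the summit, had 0.643 cores per kb (0.621 to 0.665) and 0.615 AP-1 sites (0.594 to 0.636). Both were above wide peaks. Their E-box (1.41, 1.37 to 1.44) and control (0.701, 0.678 to 0.724) had intervals that overlapped those of wide peaks.

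Cores of wide peaks were densest near the summit but were also present away from it. Within 100 bp of the summit there were 130 cores, or 0.771 per kb (0.644 to 0.915). Beyond 100 bp on the longer side of the peak there were 86 cores, or 0.321 per kb (0.257 to 0.396), above the 0.117 per kb of the flanks, and 14 on the shorter side, or 0.182 per kb (0.0994 to 0.305). In narrower peaks the longer side had 0.264 cores per kb (0.234 to 0.296), which overlapped the interval of wide peaks. At 250 to 300 bp from the summit wide peaks had 24 cores, or 0.285 per kb, and narrower peaks, most of which end before that distance, 0.120 per kb. For wide peaks 0.285 was the highest value beyond 100 bp, and the other steps of 50 bp ran from 0.0832 to 0.262 per kb. The control motif had 0.729, 0.735 and 0.792 sites per kb in the 3 zones of wide peaks, with overlapping intervals.

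In 42 wide peaks the Pax sites lay at 2 or more separate places over 10 bp apart. The outermost places were 14 to 501 bp apart, the median being 127.5 bp, and over 200 bp apart in 12 peaks. The Vcam1 peak with its cores at 38.5 and 406.5 bp from the summit, printed above, is 1 of these.

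**Figure D4:**
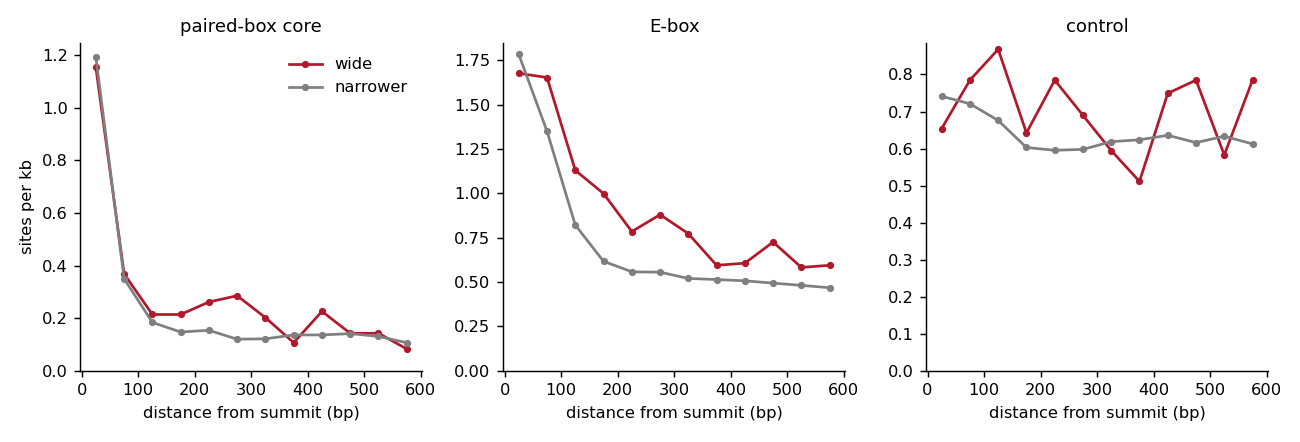
Sites per kb in steps of 50 bp of distance from the summit, both sides combined and counted whether or not the peak reaches that far, for the paired-box core, the E-box and the control motif, wide peaks in red and narrower peaks in grey. The core fell from 1.15 to 0.369 per kb within 100 bp of wide summits and lay between 0.0832 and 0.285 per kb in the steps beyond, and the control showed no such fall.

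By genomic class, a core lay within 50 bp of the summit of 22.7% of promoter, 9.51% of intronic and 7.61% of intergenic wide peaks. Narrower peaks also had a core less often over 1 kb from a TSS (9.73%) than over all classes (11.1%). The core contains a CpG, and CpG was more frequent in promoter wide peaks, as given above, and the part of this in the count was not tested. AP-1 sites were at 0.758% of the 132 promoter, 5.21% of the 326 intronic and 4.35% of the 368 intergenic wide peaks.

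Each wide peak was assigned to the protein-coding gene with the nearest TSS, which is a label of position and no evidence of regulation. The 841 peaks were nearest to 762 of 22350 protein-coding genes, 3.41%, and peaks of any width were nearest to 8548, 38.2%. A single wide peak was assigned to 699 genes, 2 to 49, 3 to 12, and 4 to 2 genes. The 2 genes with 4 were Vgll3, a cofactor of Tead transcription factors, and Gm9747. The 4 peaks at Vgll3 were 873, 563, 526 and 517 bp wide, lay between 102.4 and 621.5 kb from its start, reached 6.74- to 10.3-fold and held no Pax site. The 4 at Gm9747 were 622 to 766 bp wide and 6.17- to 11.7-fold. All 8 of these peaks lay between genes.

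Genes with 3 wide peaks included Cxcr7, an atypical chemokine receptor, Nfib and Maf, both transcription factors, Lama2, Sytl2, Cep120, Diap3, Ube2e3, Rgmb and 3 genes known mainly by their clone or model names. The peaks at Cxcr7 were 825, 636 and 539 bp wide, at 3.93-, 7.69- and 10.4-fold, and each held a Pax site. At Nfib a peak of 847 bp and 5.18-fold lay within 1 kb of a TSS inside the gene, 13.6 kb from its own start, and peaks of 9.75- and 8.55-fold in an intron and beyond the gene. The 3 at Maf reached 6.48-, 8.91- and 14.6-fold, the last in an intron of the neighbouring gene Wwox.

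Lists of genes with known roles were then read against the background of 3.41%. Between 46.9 and 97.0% of the genes of each list were nearest to a peak of any width, against 38.2% of all protein-coding genes, so the share of each list's peaks that were wide is given beside the share over all peaks, 4.09%. No list is called particular from these shares, which rest on 0 to 11 wide peaks each. Among myogenic regulators 2 of 20 genes had a wide peak, and 3 of the 65 peaks of the list were wide, 4.62%. A peak of 694 bp and 12.9-fold lay 62.8 kb upstream of Myod1, the muscle determination factor, with 93 fragments at its summit. It held an AP-1 site near the summit and no Pax site. Tcf4, an E-protein that pairs with MyoD, had a wide peak of 804 bp and 13.4-fold 7.68 kb upstream and one of 564 bp and 7.30-fold at its start.

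Among regulators of somites and limb migration, 6 of 34 genes had a wide peak, and 7 of 131 peaks were wide, 5.34%. The strongest, of 526 bp and 21.9-fold with 136 fragments, was in an intron of Gab1, a docking protein of the Met receptor. Meis2, a homeobox gene, had peaks of 12.7-fold in an intron and 13.7-fold 341.7 kb upstream. Zfhx3 (14.4-fold), Nr2f1 (10.95-fold), Dmrt2 (9.77-fold) and Prrx1 (8.82-fold), all transcription factors, had 1 each at 92.0 to 519.8 kb from their starts. All 7 peaks exceeded the median fold of wide peaks, 7.80, but the list was chosen with earlier results known and this was not tested. In the network of Six2 and Eya genes, only Six2, a homeobox gene, of 10 genes had one, at 13.2-fold and 170.0 kb upstream, and 1 of 44 peaks was wide, 2.27%.

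In the Notch pathway, 2 of 21 genes had a wide peak and 2 of 40 peaks were wide, 5.0%. These lay at Rbpj, the DNA-binding effector (8.96-fold), and in an intron of the receptor Notch2 (724 bp, 8.75-fold). In the Fgf pathway it was 3 of 21 genes and 3 of 55 peaks, 5.45%, with a peak of 808 bp and 7.91-fold 19.5 kb from Fgfr4, a receptor of muscle progenitors, and others nearest to the ligand Fgf1 (7.5-fold) and the inhibitor Spred2 (5.22-fold). In the Wnt pathway it was 4 of 36 genes and 6 of 93 peaks, 6.45%. The nuclear effectors Tcf7l1 and Tcf7l2 had 2 intronic wide peaks each, at 2.62- and 5.82-fold and at 5.70- and 7.67-fold. The receptor Fzd1 had 1 at 7.11-fold and the secreted Rspo3 1 at 4.61-fold, so all 6 peaks of the Wnt list were below the median of 7.80. This holds for the list only, since Wnt16, which is not on it, had 2 wide peaks of 15.1- and 4.68-fold. Vgll3 was the only 1 of 17 Tead and Hippo genes with a wide peak, and its 4 were 7.84% of the 51 peaks of that list. Of 17 AP-1 and Runx genes found, only Atf3 had one, at its promoter (517 bp, 8.00-fold) with 2 Pax sites, and this was 1 of 42 peaks, 2.38%.

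In the extracellular matrix and niche list 8 of 38 genes had one, and 10 of 147 peaks were wide, 6.80%. Lama2, which encodes the laminin alpha chain of muscle basement membrane, had 3, of 686 bp and 7.67-fold at its promoter, 5.22-fold 36.3 kb upstream and 15.5-fold 224.2 kb upstream. Lama4 (14.3-fold), another laminin, and Sulf2 (12.7-fold), a heparan sulfate endosulfatase, had 1 each between genes. Thbs1 (7.54-fold), Gpc6 (6.80-fold), Col12a1 (5.08-fold), Sdc4 (4.92-fold) and Vcan (718 bp, 4.80-fold) had weaker ones.

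In the adhesion and guidance list 8 of 33 genes had a wide peak, and 11 of 231 peaks were wide, 4.76%. The strongest was the intronic peak of Plxna2, 906 bp wide and 14.7-fold with 122 fragments. The Vcam1 peak was 839 bp wide and 9.20-fold with 77 fragments, and peaks nearest to Itga4, a subunit of its integrin receptor, were 508 bp at 9.59-fold and 642 bp at 5.13-fold. The ephrin receptor Epha4 had 2 at 8.21- and 8.22-fold, and the ephrin Efnb2 had 2 at 5.93- and 7.96-fold, 715.0 to 1189 kb from its start. Sema3d (9.59-fold), Cdh13 (7.54-fold) and Slit3 (736 bp, 7.14-fold) had 1 each.

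**Figure D5:**
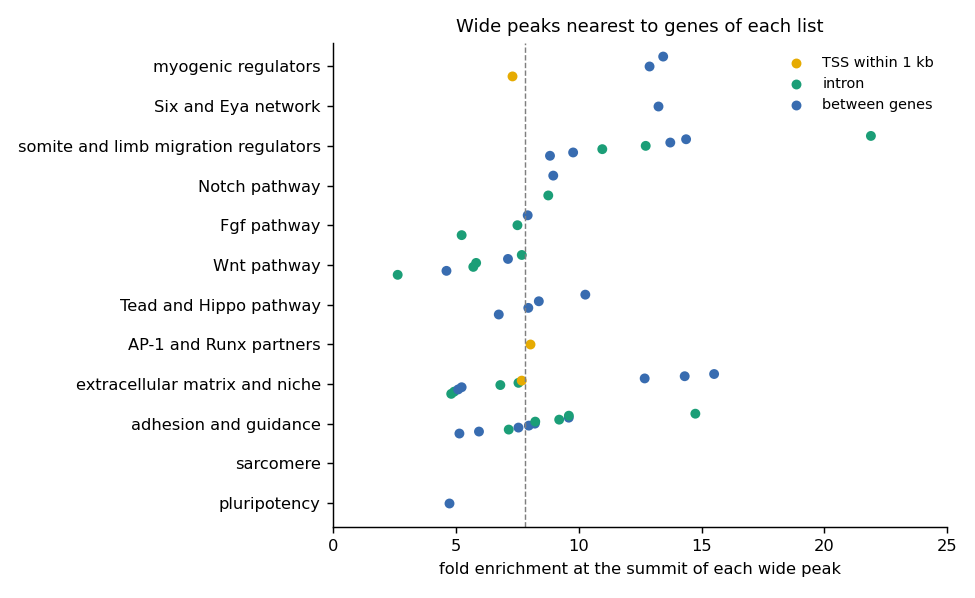
Fold enrichment at the summit of each wide peak nearest to a gene of 12 lists, 1 point per peak, coloured by genomic class, with the median of all wide peaks, 7.80, as a dashed line. All 7 peaks of the somite and limb list lie to the right of the line and all 6 of the Wnt list to its left, and the sarcomere row is empty. The lists were chosen with earlier results known and are not complete, and no list is called particular from these folds.

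No gene of the sarcomere list had a wide peak, although 15 of its 32 genes were nearest to a Pax7 peak. This was 0 of 52 peaks, and a count of 0 allows a share of up to 5.77%, so a share like the 4.09% of all peaks could not be told from it. For comparison, 1 of 17 pluripotency genes found, Klf4 (4.72-fold), had a wide peak, 1 of 25 peaks or 4.0%.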

How the data were processed

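Pax7 ChIP (2 libraries) and input DNA (2 libraries) were sequenced. The authors aligned reads to NCBIM37/mm9 with bowtie2 2.3.4.1, removed duplicates with Picard 1.88, merged the libraries of each kind and called peaks with MACS2 2.1.1, keeping those with q below 0.01. The deposited list gives position, summit, a score, the fold enrichment as a ratio, and −log10 p-values and q-values. No values per sample exist in it, and 0 columns were left out for lack of a sample. The score was not analysed.

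Width was the end minus the start. Classes and nearest genes came from GENCODE vM1. ChIP fragments and background at each summit were solved from fold and p-value, which matched all 20579 peaks within 0.001 of −log10 p, an addition made after seeing the data that rests on the formula of MACS2. Shares have Wilson and differences Newcombe 95% intervals, computed with Python scripts checked on simulated data. No p-value was computed, since the peaks are not replicates. GC and CpG were taken from 250 bp before to 250 bp after the summit.

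Peaks named are the 10 widest, the 5 highest and 5 lowest in fold, 3 on each side of the limit (ties by fold), those with most neighbours, genes with most wide peaks, and list genes with a wide peak. The members and lists were chosen with earlier results of these data known. Alternatives were widths of 400 and 600 bp, stronger peaks only, other windows and annotations, and merging of peaks within 500 bp. Repeats were not masked. The result of 1 further gene list is not reported here.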

Additional observations from a re-analysis of the deposited data

How the results depend on the processing

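No paired analysis was possible because the peaks were called on merged libraries and carry no value per replicate, and for the same reason no replicate could be left out. Of 124 alternatives, 76 kept both the direction and the side of 0 of the interval (counts within 1.5 times). The causes of the changes below were not tested. Values are wide minus narrower shares in percentage points unless they are counts. The number of wide peaks was 2130 at a limit of 400 bp, 333 at 600 bp, 241 with a fold of at least 10 and 1441 after merging within 500 bp, and their nearest genes numbered 1733 at 400 bp and 321 at 600 bp. The promoter difference was 0.146 at a fold of at least 5, −7.63 at 10 or more, −7.41 at 10 to 15 and −3.75 with TSSs within 5 kb, where the interval excluded 0 in all but the first. The exon difference was 0.637 at 15-fold or more. The intron difference lost its call at a fold of at least 5 (−3.03), with TSSs within 5 kb (−1.13) and with protein-coding TSSs (−3.18), and turned at a fold of at least 10 (3.91), 10 to 15 (2.61) and at least 15 (9.38). The intergenic difference lost its call at a fold of at least 10 (4.98) and 10 to 15 (6.41) and turned at 15 or more (−3.47). The neighbour difference lost its call at a fold of at least 10 (6.41) and within 50 kb (2.62). For any Pax site the value was 0.812 at 400 bp, 0.490 within 25 bp and 0.650 within 100 bp, all with intervals over 0, and −10.1 at a fold of at least 10 and −9.91 at 10 to 15, past it. For the core it was 0.354, 0.514 and 0.0525 in the same first 3 settings, and −8.92, −7.91 and, at 15-fold or more, −13.5. The E-box turned to 1.71 at 400 bp (0.07 to 3.45, past 0), 1.64 within 25 bp and 1.17 within 100 bp. AP-1 lost its call at a fold of at least 10 (−1.46) and within 25 bp (−1.13). Tead moved to 0.766 at 600 bp, −4.63 at a fold of at least 10 (−7.79 to −0.41, past 0) and 0.368 within 100 bp, Runx to 0.790, 0.283 and 0.349 in the same settings, and Mef3 to −0.0658 at 400 bp and −0.267 within 100 bp. The control motif passed at 400 bp (−1.15) and 600 bp (−3.61), the latter past the AP-1 difference of −2.90. Fold strata, GTCAC as a core, summits 1000 to 12500 bp away and peaks away from TSSs were alternatives chosen after seeing the data.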
